A study of Mus musculus with 5 samples.

Results

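Natural killer (NK) cells of 5555 melanomas were the cells that the authors' deposited annotation names NK cells, joined to the expression matrix by cell barcode. They numbered 692 of 11818 leukocytes used from these tumours, in a series of 31617 annotated cells. The NK-depleted Ptgs-/- library gave 45 of them, the Ptgs-/- library 510 and the Ptgs+/+ library 137. The 9 barcodes that more than 1 cell carried (18 cells) were left out, and none of those cells was annotated NK.

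All 3 libraries held live CD45+ cells sorted from subcutaneous 5555 melanomas of C57BL/6 mice on day 4. The first group carried the Ptgs-/- 5555 line in mice given antibodies to Asialo GM-1 and to NK1.1 (clone PK136) to deplete NK cells. The second carried the same Ptgs-/- line without depletion, and the third carried the Ptgs+/+ line. The Ptgs genes encode the cyclooxygenases that start prostaglandin synthesis, and the deletion is in the injected tumour cells, so the NK cells are the host's own. Each condition is 1 droplet library, and the number of mice behind a library is not given in the sources used here. The values below therefore describe 3 libraries. Intervals are 95% intervals for counting error only, and no p-value between conditions can be given.

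NK cells are innate lymphocytes that kill stressed or transformed cells by releasing perforin and granzymes, and that signal to other leukocytes through interferon-gamma and chemokines such as CCL5 and XCL1. Activating receptors such as NKp46 (Ncr1) and NKG2D are balanced against inhibitory receptors for MHC class I, in mice many members of the Ly49 family. Prostaglandin E2 acts on lymphocytes through the receptors EP2 and EP4, which raise cyclic AMP, and is known to restrain NK cell function. The markers used to check identity were Ncr1, Klrb1c (NK1.1 in C57BL/6 mice, and so a target of the depleting antibody), Gzma, Prf1, Nkg7 and Eomes.

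The RNA of the annotated NK cells matched their name in both undepleted libraries but not in the depleted one. Among annotated NK cells, Ncr1 had a unique molecular identifier (UMI, 1 counted RNA molecule) in 0 of 45 cells of NK-depleted tumours, 248 of 510 of Ptgs-/- tumours and 67 of 137 of Ptgs+/+ tumours. Klrb1c was seen in 2, 374 and 86 of these cells in the same order of libraries, and the T cell gene Cd3e in 24, 15 and 4. With each cell thinned to 1500 UMIs, Cd3e was seen in 42.4% of the depleted library's cells (25.5 to 60.8), 2.01% of the Ptgs-/- cells (0.870 to 3.91) and 3.12% of the Ptgs+/+ cells (0.649 to 8.86). At that depth Ncr1 was seen in 0%, 37.6% and 41.7%, and Klrb1c in 3.03%, 60.7% and 51.0%. Gzma, Prf1 and Eomes had no UMI in any of the 45 cells, which at 3 counts allows a share of cells with a UMI of up to 6.67% for each at this depth (exact 95% upper limit 7.87%).

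Sorted by their RNA, 34 of the 45 cells had a chain of the CD3 complex and none of Ncr1, Gzma, Prf1, Klrb1c and Eomes. A further 9 had neither, 1 had both, and 1 cell had an NK marker and no CD3 chain. By the same division, 481 of 510 annotated NK cells of Ptgs-/- tumours (94.3%, 91.9 to 96.2) and 117 of 137 of Ptgs+/+ tumours (85.4%, 78.4 to 90.8) had an NK marker and no CD3 chain. The remaining cells of the undepleted libraries with a CD3 chain were 25 of 510 and 18 of 137.

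The 45 cells of the depleted library carried RNA of T cells and related lymphocytes instead. At least 1 of 8 T cell markers was seen in 41 of them (91.1%, 78.8 to 97.5), against 130 of 510 NK cells of Ptgs-/- tumours (25.5%). Of these 8, Cd8a and Cd8b1 were at 0 in the 45 cells. Most of the 130 held Trbc2, a T cell receptor beta constant gene, seen in 119 of the 510 cells. Cd3g was seen in 20 of the 510 and Cd4 in 4. Trac, the T cell receptor alpha constant gene, averaged 531 CPM (a gene's UMIs scaled to the same total in every cell) in the 45 cells and 19.8 CPM in Ptgs-/- NK cells, and Cd4 averaged 326 and 4.93 CPM. Il7r, the interleukin-7 receptor, averaged 478 against 15.6 CPM, and Cxcr6, a tissue-residency chemokine receptor, 542 against 17.8 CPM. Foxp3, which defines regulatory T cells, was seen in 9 of the 45 cells, Il1rl1, the interleukin-33 receptor, in 14, and Gata3 in 24. At least 1 marker of type 1 innate lymphoid cells was seen in 32 of the 45 cells, of type 2 in 34 and of type 3 in 4. In the 510 Ptgs-/- NK cells these counts were 53, 166 and 2. The type 1 list includes Il7r and Cxcr6, and the type 2 list Gata3 and Il1rl1. All of these genes were also common in the annotated T cells of the same library, as given below.

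Set beside the annotated T cells of the same library, some of these genes were seen at similar shares and others were not. Cd3e was seen in 53.3% of the 45 cells (37.9 to 68.3) and in 43.1% of the library's 109 T cells (33.7 to 53.0), Il7r in 53.3% and 75.2%, and Cxcr6 in 44.4% and 46.8%. Icos, a T cell costimulator, was seen in 27 of 45 and 68 of 109 cells. Gata3 was seen in 53.3% of the 45 cells and 59.6% of the T cells, and Il1rl1 in 31.1% and 39.4%. Cd4 was seen in 51.1% of the 45 cells (35.8 to 66.3) and 25.7% of the T cells (17.8 to 34.9), intervals that did not overlap. Trac was seen in 51.1% and 35.8%, and Foxp3 in 9 of 45 and 11 of 109. Little NK RNA was left in them. Nkg7, a cytotoxic granule gene, was seen in 7 of 45 cells and 4 of 109 T cells, and Tyrobp, an adaptor of NK and myeloid receptors, in 7 and 3. The granzyme gene Gzmc was seen in 5 of the 45 cells (11.1%, 3.71 to 24.1) and in 0 of the 109 T cells. These 45 cells are called the 45 annotated cells of the depleted library from here on, and not NK cells.

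**Figure D1:**
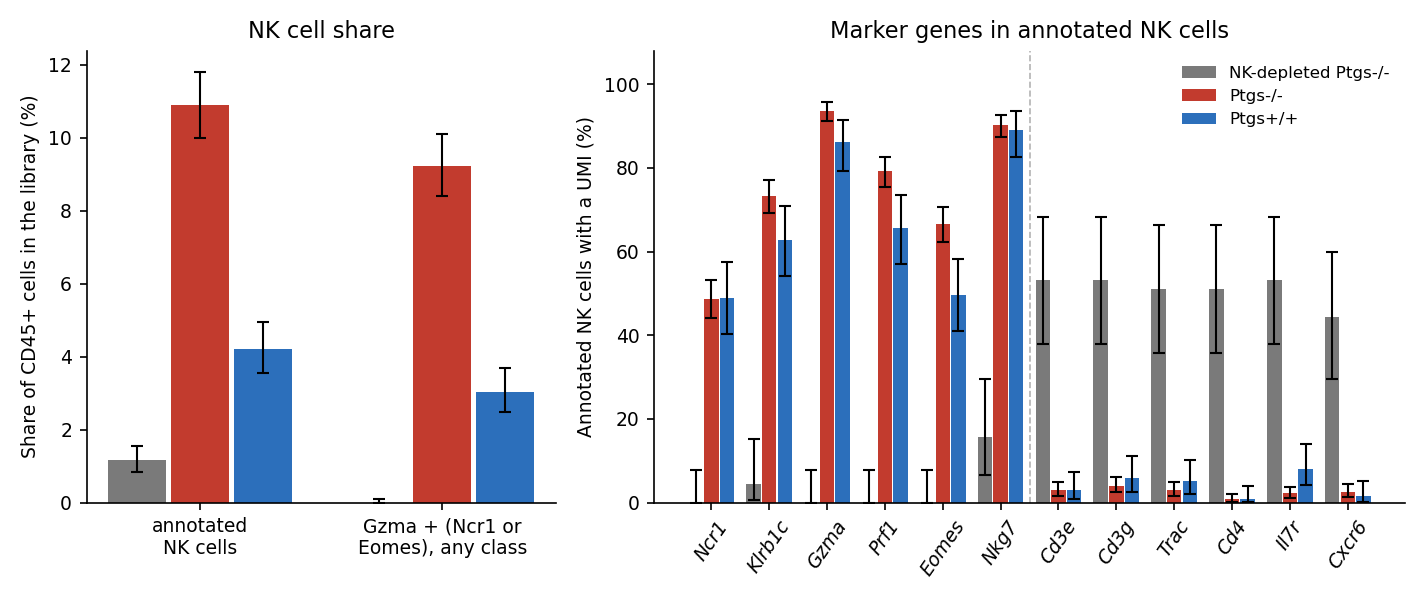
Left, share of all CD45+ cells in each library that were annotated NK, and share that held Gzma with Ncr1 or Eomes whatever their annotation. Right, share of annotated NK cells with a UMI of each gene, NK markers left of the dashed line and T cell and related genes right of it. Bars show NK-depleted Ptgs-/- (45 cells), Ptgs-/- (510) and Ptgs+/+ (137) and whiskers are exact 95% intervals. Ncr1, Gzma, Prf1 and Eomes were at 0 in the depleted library, where Cd3e, Cd3g, Trac, Cd4 and Il7r were each seen in over 50% of cells.

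NK cells made up 10.9% of leukocytes in Ptgs-/- tumours, against 4.20% in Ptgs+/+ tumours. The annotation put 1.16% (0.847 to 1.55) in the depleted library. Cells were also counted without the annotation, by a UMI of Gzma together with Ncr1 or Eomes. There were 0 such cells of 3879 in NK-depleted tumours, which allows a share of up to 0.0773%, then 431 of 4677 in Ptgs-/- tumours (9.22%, 8.40 to 10.1) and 99 of 3262 in Ptgs+/+ tumours (3.03%, 2.47 to 3.68). The Ptgs-/- share was 3.04-fold the Ptgs+/+ share by this count (2.45 to 3.76). With 0 cells taken as 3, the depleted library was 119-fold below the undepleted Ptgs-/- library. The count was added after the data were seen, and each of its genes had no UMI in the depleted library. The 0 and the 119-fold therefore follow from the choice of genes and are not an independent check.

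Ncr1, Gzma and Eomes had no UMI in any of the 3879 cells of the depleted library, whatever their class, while Klrb1c was seen in 14, Nkg7 in 13 and Prf1 in 5 of them. In the undepleted libraries Gzma was also found in 56 of 3184 monocytes and macrophages of Ptgs-/- tumours (1.76%, 1.33 to 2.28) and 17 of 2360 of Ptgs+/+ tumours (0.720%, 0.420 to 1.15), cells that should lack it. All monocytes and macrophages together, with or without Gzma, had median depths of 4957.5 and 3701 UMIs, against 2095.5 and 1835 UMIs in the NK cells of the same libraries. The Gzma shares of 93.7% and 86.1% in NK cells stood far above this background.

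Among lymphocytes the NK share differed less. NK cells were 510 of 768 NK, T and B cells in Ptgs-/- tumours (66.4%, 62.9 to 69.7) and 137 of 226 in Ptgs+/+ tumours (60.6%, 53.9 to 67.0), a ratio of 1.10 (0.975 to 1.23). T cells themselves numbered 214 of 4677 and 66 of 3262. Shares of a sorted library do not give numbers of cells per tumour.

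Levels in NK cells were compared between Ptgs-/- and Ptgs+/+ tumours as the mean CPM over cells. Numbers after gene names below are differences of log2(mean CPM + 5), Ptgs-/- minus Ptgs+/+, and a gene is called higher or lower at 1.5-fold. Of 5495 genes seen on average in at least 5% of cells, 591 were higher (10.8%), 529 were lower (9.63%) and the median was 0.02. Past 2-fold were 149 higher (2.71%) and 96 lower (1.75%). Together at 1.5-fold that is 20.4% of genes by size alone, the background against which each list below is read. Higher genes were 52.8% of these calls, but 77.0% when values were averaged as log2 per cell and 73.2% without each gene's highest cell. NK cells held 1220815 UMIs in all in Ptgs-/- tumours and 294700 in Ptgs+/+ tumours, so the Ptgs+/+ means are the less precise.

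Of 4 kept granzyme and perforin genes, Gzmb was higher, Gzmc was lower, and Gzma and Prf1 were within 1.5-fold. Gzma, the main granzyme of resting mouse NK cells, averaged 6822 CPM in Ptgs-/- and 7102 CPM in Ptgs+/+ NK cells (-0.06). Gzmb, the granzyme that rises on activation and starts caspase cleavage, averaged 582 and 377 CPM (0.62), from 615 and 105 UMIs. Its UMI ratio, each sum taken over all UMIs of the library's NK cells, was 1.41 (1.15 to 1.76). Under 4 of 13 alternatives the difference was 0.49 to 0.56, short of 1.5-fold. Prf1, the pore-forming protein, averaged 1237 and 921 CPM (0.42). Averaged as log2 values per cell, the differences of Gzma and Prf1 were 0.86 and 1.51, past 1.5-fold.

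Gzmc, a granzyme of strongly activated killer cells, averaged 22.9 CPM in Ptgs-/- and 1172 CPM in Ptgs+/+ NK cells (-5.40). It was between -6.06 and -1.17 over 12 alternatives. Its UMIs numbered 35 and 542, a ratio of 0.0156 (0.0107 to 0.0220). They lay in 14 of 510 cells (2.75%, 1.51 to 4.56) and 17 of 137 cells (12.4%, 7.40 to 19.1), and no Ptgs-/- cell held more than 7. In Ptgs+/+ tumours 7 cells held 20 or more, up to 127, and together had 92.8% of that library's Gzmc UMIs in NK cells. At 1500 UMIs per cell the shares were 2.01% (0.870 to 3.91) and 14.6% (8.21 to 23.3), so the intervals did not overlap. In the 45 annotated cells of the depleted library, Gzmc was seen in 5 (11.1%, 3.71 to 24.1, unthinned) and averaged 45.0 CPM. Gzmc lies at chromosome 14, 56231441 to 56234656, on the minus strand (GRCm38), in a cluster with Gzmb, Gzmd and Gzme. No stretch of 60 bases in the last 400 bases of its transcript was shared with another granzyme transcript in GENCODE M21.

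The 17 Gzmc cells of Ptgs+/+ tumours held NK RNA, more often with Kit and Tnfrsf9 and less often with Ccl5 and Ccl4 than the other NK cells. Fcer1g, an NK signalling adaptor, was seen in 17 of them, Ncr1 in 10, Klrb1c in 12 and Eomes in 7, against Eomes in 61 of the other 120. Of the CD3 chains, Cd3e and Cd3d were seen in 0 of the 17 and Cd3g in 2, against 6 of 120 for Cd3g. Kit, the stem cell factor receptor, was seen in 9 of 17 (52.9%, 27.8 to 77.0) and in 11 of the other 120 NK cells (9.17%, 4.67 to 15.8). Tnfrsf9, the costimulatory receptor 4-1BB, was seen in 9 of 17 and 19 of 120. Ccl5 was seen in 7 of 17 (41.2%, 18.4 to 67.1) and in 106 of 120 (88.3%, 81.2 to 93.5), and Ccl4 in 2 of 17 and 62 of 120. Gzmd and Gzme, neighbours of Gzmc, were each seen in 3 of the 17 and in none of the 120. Neither had a UMI in the 510 Ptgs-/- NK cells, against 50 and 35 UMIs in the Ptgs+/+ NK cells, and they share part of their transcript ends with other granzymes. Genes for this comparison were chosen after their values were seen, and the Gzmc cells were deeper, with medians of 2858 and 1698 UMIs. In Ptgs-/- tumours the 14 Gzmc cells had Tnfrsf9 in 12, against 91 of the other 496, and Ccl5 in 11, against 464 of 496.

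**Figure D2:**
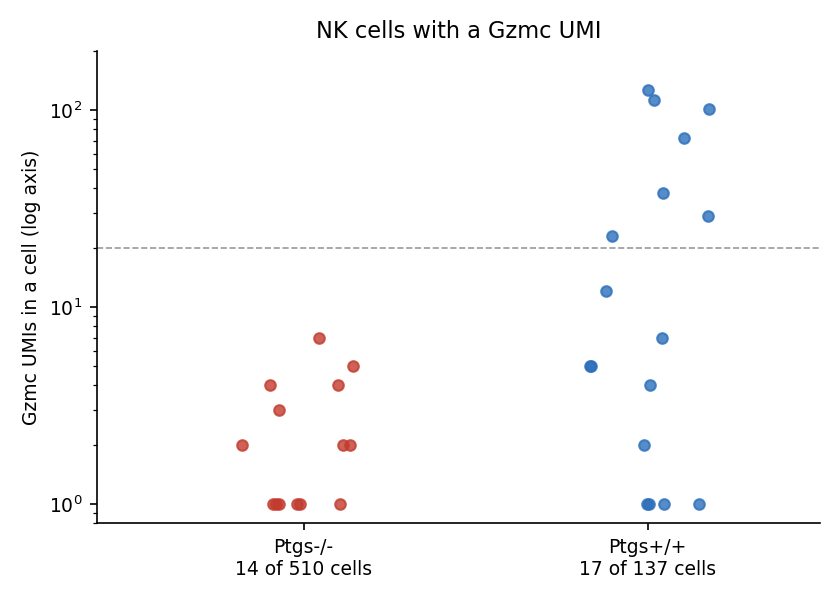
Gzmc UMIs in each NK cell that had at least 1, on a log axis, for Ptgs-/- tumours (14 of 510 cells) and Ptgs+/+ tumours (17 of 137 cells). Points are cells, spread sideways only to separate them, and the dashed line marks 20 UMIs. The 7 cells at or above the line were all from Ptgs+/+ tumours, and the highest Ptgs-/- cell had 7.

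Other genes of the killing machinery were mixed, with 2 of 11 higher and 2 lower. Fasl, the death ligand that kills through Fas, averaged 392 CPM in Ptgs-/- and 172 CPM in Ptgs+/+ NK cells (1.16), with a UMI ratio of 2.09 (1.55 to 2.88). It was seen in 39.8% (35.0 to 44.8) and 20.8% (13.2 to 30.3) of cells at equal depth, and stayed between 1.02 and 2.02 under 13 alternatives. Rab27a, which docks lytic granules, averaged 62.8 and 37.6 CPM (0.67), but its UMI ratio of 1.38 (0.794 to 2.58) covered 1 and it lost its call under 3 of 13 alternatives. Nkg7 averaged 1612 and 2425 CPM (-0.59) but was seen in 83.2% and 88.5% of thinned cells. Srgn, the proteoglycan that packs granzymes, averaged 606 and 1301 CPM (-1.10). It was at -0.57 without cells that held a gene of another lineage (Cd3e, Cd79a, C1qa, Lyz2, S100a8 or S100a9).

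Neutrophil RNA also differed between the NK cells of these libraries. At least 1 of 8 neutrophil markers was seen in 22 of 510 NK cells of Ptgs-/- tumours (4.31%, 2.72 to 6.46) and 22 of 137 of Ptgs+/+ tumours (16.1%, 10.3 to 23.3), and none of the 8 was at 0 in either. Their summed level was 120 and 1336 CPM, and all 4 kept markers were lower in Ptgs-/- cells, with S100a9 at -4.06. Il1b, interleukin-1 beta, averaged 143 and 709 CPM (-2.27), and was at -1.01 without cells of another lineage's genes. Ets2 (-1.53) was at -0.11 without them. Leaving those cells out kept 417 of 510 and 102 of 137 cells. It also removed cells with Cd3e, Cd79a, C1qa or Lyz2, so the part of neutrophil RNA in these values was not tested.

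None of 4 kept chemokines passed 1.5-fold in mean CPM. Ccl5 averaged 6731 CPM in Ptgs-/- and 5919 CPM in Ptgs+/+ NK cells (0.19), Ccl4 2198 and 2125 CPM (0.05), Ccl3 444 and 631 CPM (-0.50) and Xcl1, which draws XCR1+ dendritic cells, 314 and 322 CPM (-0.04). Averaged as log2 values per cell, Ccl5 and Ccl4 were at 1.24 and 1.82. In thinned cells Ccl5 was seen in 87.7% (84.1 to 90.8) of Ptgs-/- and in a smaller share of Ptgs+/+ NK cells (65.1% to 83.3%), intervals that did not overlap. Ccl3 or Ccl4 was seen in 61.7% (56.7 to 66.4) against 46.9% (36.6 to 57.3) of thinned cells, with intervals that overlapped slightly, and in 69.4% against 54.0% of cells before thinning. Ccl4 had a mean of 3397 CPM in the Ptgs-/- cells that held it and 4549 CPM in the Ptgs+/+ cells that held it.

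Among 4 kept cytokines, Ltb, the lymphotoxin beta chain, was lower (-0.92, 106 and 205 CPM). Ifng, the main NK cytokine, averaged 273 and 268 CPM (0.03), and was seen in 22.3% (18.3 to 26.7) and 16.7% (9.84 to 25.6) of thinned cells (26.5% and 21.2% unthinned). Its level difference in thinned cells was 0.63, past 1.5-fold, and it was -0.31 without cells of another lineage's genes. The tenth of cells richest in Ifng held 66.5% of its summed CPM in Ptgs-/- and 80.3% in Ptgs+/+ tumours. Tnf was seen in 9 of 510 and 2 of 137 cells, and Csf2 in 5 and 0, so neither could be compared. Flt3l, a dendritic cell growth factor, averaged 68.1 and 72.0 CPM (-0.08).

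**Figure D3:**
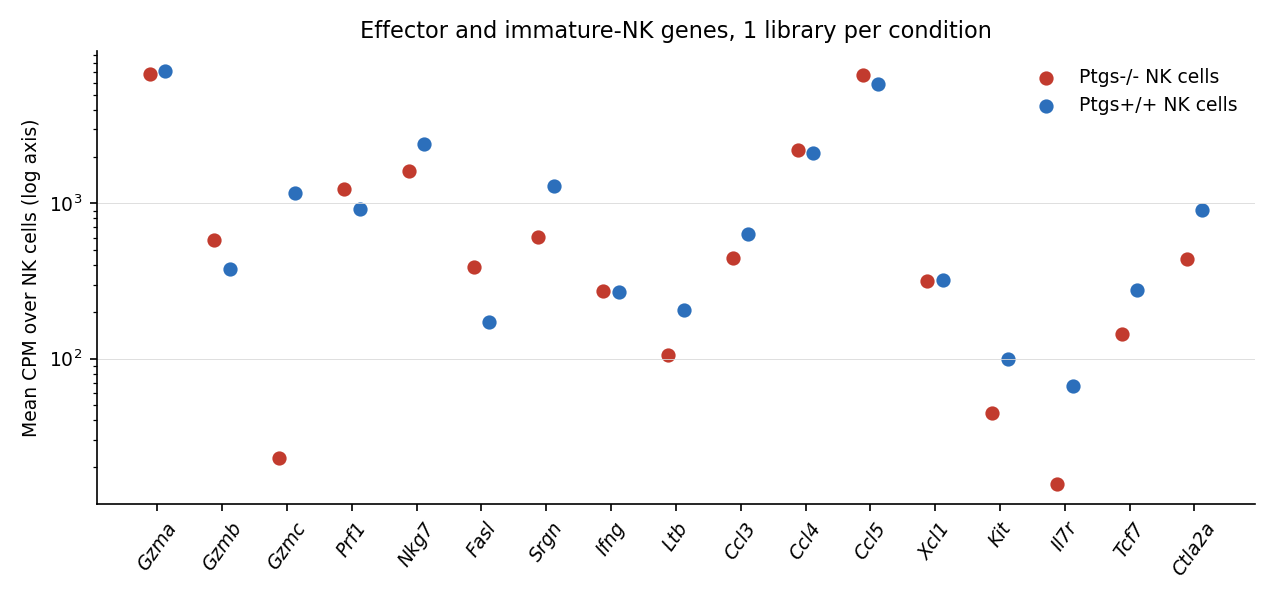
Mean CPM over NK cells on a log axis, for Ptgs-/- (left point of each pair) and Ptgs+/+ tumours (right point), 1 library each, so no error between animals can be drawn. Gzma, Ccl4, Ccl5, Xcl1 and Ifng lie close together, Fasl is higher in Ptgs-/- cells, and Gzmc, Srgn, Kit, Il7r, Tcf7 and Ctla2a are lower in them.

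Receptors that recognise targets were mostly within 1.5-fold. Of 14 kept activating receptors and adaptors, 2 were higher and none was lower, with a median of -0.01. Ncr1 averaged 360 CPM in Ptgs-/- and 357 CPM in Ptgs+/+ NK cells (0.01), and Klrk1, which encodes NKG2D, 774 and 873 CPM (-0.17). The signalling adaptors Hcst, which couples to NKG2D, and Cd247, the CD3 zeta chain, were each at 0.63, from 820 against 130 and 161 against 24 UMIs. In thinned cells they were within 1.5-fold, at 0.47 and 0.32. Of 12 kept genes on the inhibitory receptor list 4 were higher and none lower, with a median of 0.26. That list also holds activating receptors, Klra4 among them, so the count and median are not for inhibitory receptors alone. Klra4, a Ly49 receptor, averaged 891 and 531 CPM (0.74) and Klrg1, a receptor of mature NK cells, 105 and 60.8 CPM (0.74), with a UMI ratio of 1.41 (0.885 to 2.37) that covered 1. Klri2 was at 0.63. Klrd1, the CD94 chain that pairs with NKG2 receptors, was within the limit at -0.36. Klra3, Klra8 and Klra9 shared 8.21% to 26.1% of the 60-base stretches at their transcript ends with a relative, so reads could be split among them and their values are not given.

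RNA of immature NK cells was lower in Ptgs-/- tumours. Of 9 genes on that list, all kept, 6 were lower and none was higher, with a median of -0.91 against 0.02 for all genes. Il7r averaged 15.6 CPM in Ptgs-/- and 66.8 CPM in Ptgs+/+ NK cells (-1.80) and was seen in 11 of 510 and 11 of 137 cells. It was at -0.71 without cells of another lineage's genes. Kit averaged 44.3 and 99.1 CPM (-1.08), Ctla2a 440 and 904 CPM (-1.03), and Tcf7, the transcription factor of less differentiated lymphocytes, 145 and 277 CPM (-0.91). Cd27, which marks early stages, was level at -0.09. Without cells holding a CD3 chain the list's median was -0.66, and without the Gzmc cells -0.59. At 1500 UMIs per cell it was -0.56, under 1.5-fold.

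Mature NK genes were at a median of 0.38, with 1 of 9 higher and 2 lower. The sphingosine phosphate receptors S1pr1 and S1pr5, which let lymphocytes leave tissue, were lower at -0.90 and -0.65. S1pr1 had 85 and 29 UMIs, and was at -0.23 when cells were thinned. S1pr5 had 48 and 17 UMIs, and was seen in 6.02% and 5.21% of thinned cells. Their UMI ratios of 0.708 (0.459 to 1.12) and 0.682 (0.385 to 1.26) both covered 1. Zeb2, which drives terminal NK maturation, averaged 486 and 329 CPM (0.55). Itgam (CD11b), the integrin gained late in maturation, averaged 263 and 220 CPM (0.25). Itgam without Cd27 was found in 21.6% (17.6 to 25.9) of thinned Ptgs-/- and 11.5% (5.86 to 19.6) of thinned Ptgs+/+ NK cells (27.3% and 19.7% unthinned), while Cd27 without Itgam was at 18.3% and 18.8%. The Itgam intervals overlapped between 17.6% and 19.6%.

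Of 13 lineage transcription factors, none was higher, 1 was lower and the median was 0.28. Eomes, which maintains NK identity, averaged 651 CPM in Ptgs-/- and 514 CPM in Ptgs+/+ NK cells (0.34), and was seen in 58.4% (53.4 to 63.3) and 36.5% (26.9 to 46.9) of thinned cells (66.7% and 49.6% unthinned). The level difference in thinned cells was 0.69. Tbx21, its partner T-bet, averaged 237 and 184 CPM (0.36), and Irf8, needed for NK activation, 2337 and 1816 CPM (0.36). Nfil3, which starts NK development, was lower at -0.64. Cells with Itga1, Cxcr6, Cd200r1 or Il7r and without Eomes, genes also found in group 1 innate lymphoid cells, were 4.76% (2.89 to 7.34) and 12.5% (6.63 to 20.8) of thinned cells (4.51% and 9.49% unthinned). A CD3 chain was seen in 25 of 510 Ptgs-/- and 18 of 137 Ptgs+/+ NK cells, and its part in these shares was not tested.

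**Figure D4:**
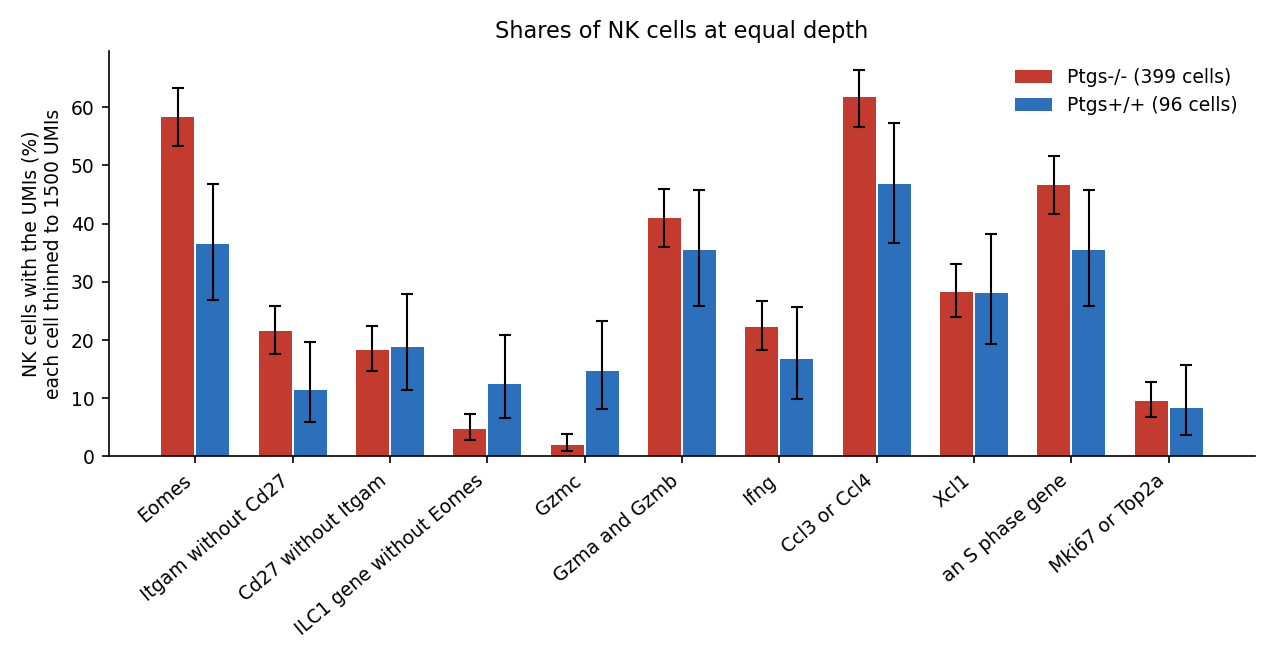
Share of NK cells with a UMI of the named gene or pair after each cell was thinned to 1500 UMIs, for Ptgs-/- (399 cells) and Ptgs+/+ tumours (96 cells). Shallower cells were left out, and whiskers are exact 95% intervals. An ILC1 gene is Itga1, Cxcr6, Cd200r1 or Il7r. Eomes was in 58.4% against 36.5%, Gzmc in 2.01% against 14.6%, and intervals for Cd27 without Itgam, Xcl1, Ifng and Mki67 or Top2a overlapped widely.

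Cytokine receptors were mostly level, with 2 of 13 higher and none lower. Il2rb, the shared interleukin-2 and interleukin-15 receptor chain, averaged 1829 CPM in Ptgs-/- and 1557 CPM in Ptgs+/+ NK cells (0.23), and Il18r1 382 and 386 CPM (-0.01). Il12rb2, the inducible interleukin-12 receptor chain, averaged 79.4 and 48.2 CPM (0.67), but its UMI ratio of 1.52 (0.858 to 2.89) covered 1. Tgfbr1, the other higher gene, was at 1.98, from only 45 UMIs in Ptgs-/- and 3 in Ptgs+/+ NK cells. Its UMI ratio was 3.62 (1.16 to 18.2). Of 9 feedback and survival genes 1 was higher and 2 lower, with Pim2 at 0.65. Among 13 homing receptors none was higher and 3 were lower. Cxcr4, a bone marrow homing receptor, averaged 426 and 659 CPM (-0.62), while Ccr2, a chemokine receptor for tissue entry, was level at 0.10.

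The prostaglandin pathway was represented by 1 receptor. Ptger4, which encodes EP4, averaged 117 CPM in Ptgs-/- and 84.0 CPM in Ptgs+/+ NK cells (0.45), with 133 and 19 UMIs and a UMI ratio of 1.69 (1.04 to 2.90). It passed 1.5-fold under 3 of 13 alternatives, at 0.71 to 1.04, and was at 0.17 without cells of another lineage's genes. Ptger2, the EP2 gene, was seen in 5 of 510 and 3 of 137 cells, and Ptger1 and Ptger3 had no UMI in either library. Of 12 genes that cyclic AMP is known to induce, none was higher, 3 were lower and the median was -0.25. Crem, a cyclic AMP-induced repressor, averaged 209 and 318 CPM (-0.59), and Rgs1, a brake on G protein signalling, 666 and 1046 CPM (-0.65). Nr4a1, Nr4a2 and Nr4a3 were at -0.22, -0.02 and -0.13. The share of lower calls, 3 of 12, stands beside 9.63% of all genes. Pde4d, the remaining lower gene, was at -1.12 from 26 and 12 UMIs, and its UMI ratio of 0.523 (0.255 to 1.14) covered 1. Rgs1 was within 1.5-fold at -0.34 in thinned cells and at -0.49 without the Gzmc cells. Crem was between -0.73 and -0.44 over 13 alternatives, and fell inside 1.5-fold in 4 of them.

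Activation and immediate-early genes had a median of -0.36, with 3 of 12 lower and none higher, though without cells of another lineage's genes it was -0.07. Egr1, an early response factor, was at -0.74, but at 0.02 without those cells and at -0.30 without cells holding a CD3 chain. Nfkbiz was at -0.66 and Tnfrsf18, the costimulatory receptor GITR, at -0.64. Cd69, an early activation marker, was level at 0.05.

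Interferon responses did not move one way. Of 7 kept type I interferon genes 1 was higher, Ifi27l2a at 0.75, and 1 was lower, Isg15. Irf7 was within the limit at -0.47, and at 0.03 in thinned cells. Of 12 interferon-gamma genes 2 were higher and 2 lower, with the GTPases Gbp4 at 0.83 and Gbp3 at -0.66, and Cd274 (PD-L1) at -0.94. None of 10 MHC class I genes passed 1.5-fold. The 5 kept MHC class II genes had a median of 0.66 that was -0.05 at equal depth, and Lyz2, a monocyte gene, was seen in 59 of 510 and 20 of 137 of these cells.

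RNA of DNA replication was higher in Ptgs-/- NK cells for 4 of 8 kept genes and lower for none, with a median of 0.50. Mcm6, part of the replicative helicase, averaged 105 CPM in Ptgs-/- and 65.1 CPM in Ptgs+/+ NK cells (0.65). It fell inside 1.5-fold under 5 of 13 alternatives, at 0.43 to 0.56. Pcna was level at 0.07. At least 1 S phase gene was seen in 46.6% (41.6 to 51.6) and 35.4% (25.9 to 45.8) of thinned cells (51.4% and 39.4% unthinned). The mitotic genes Top2a and Mki67 were at 1.28 and 0.64, but lay in 35 and 29 of 510 Ptgs-/- cells and 9 and 8 of 137 Ptgs+/+ cells. Without cells holding a CD3 chain they were at 1.03 and 0.01, and the S phase median was 0.26. Mki67 lost its call under 7 of 13 alternatives. Mki67 or Top2a was seen in 9.52% (6.83 to 12.8) and 8.33% (3.67 to 15.8) of thinned cells (8.82% and 12.4% unthinned). Without the 5% of cells with the most genes Top2a was at 0.13, Mki67 at -0.05 and the S phase median at 0.06.

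Of 14 kept genes of glycolysis and hypoxia 1 was higher and 1 lower, of 9 genes of biosynthesis and nutrient uptake 2 were higher and none lower, and of 10 heat shock genes 1 was higher, Dnajb1 at 0.82.

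**Figure D5:**
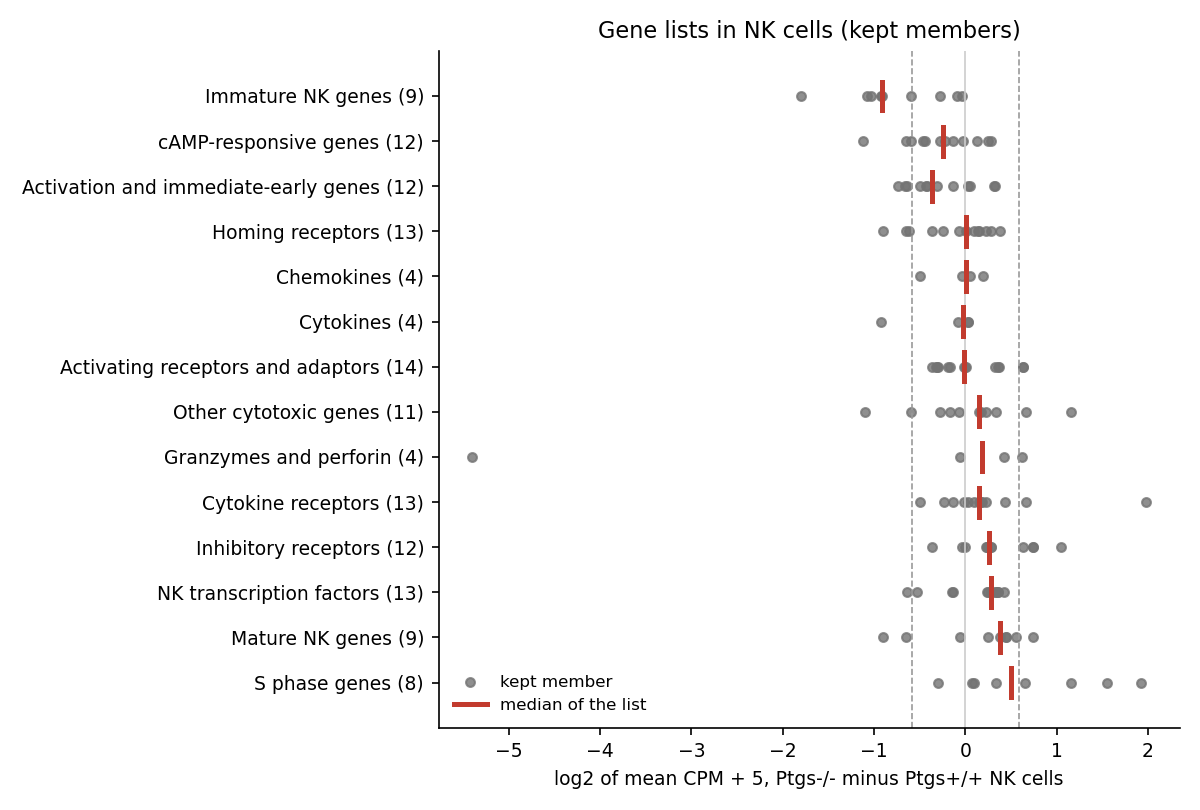
Difference of log2(mean CPM + 5) between Ptgs-/- and Ptgs+/+ NK cells for every kept member of 14 gene lists (grey points, number in brackets) and the median of each list (red bar). Dashed lines mark 1.5-fold. The immature list lies furthest to the left at -0.91, Gzmc is the single point at -5.40, and of the lists drawn the S phase genes have the highest median, 0.50. Lists of MHC, interferon, metabolic, stress, feedback, checkpoint, residency, prostaglandin receptor and mitosis genes are not drawn.

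Among the 3392 genes with a mean share of cells of 10% or more, the 10 that were lowest in Ptgs-/- relative to Ptgs+/+ NK cells were Itgb3 (-2.32), Il1b, Cdkn1a (-1.75), Ets2, Lrrc8d, Plac8 (-1.39), Tpd52, Rnf149, Ndfip1 and Gramd3 (-1.14). Itgb3, the beta-3 integrin chain, was seen in 25 of 510 Ptgs-/- and 28 of 137 Ptgs+/+ cells. It averaged 20.9 and 124 CPM and was at -2.07 without cells of another lineage's genes. Cdkn1a, the cell cycle inhibitor p21, averaged 53.3 and 192 CPM, and was at -1.12 without those cells. The 10 highest were Cep192 (1.47), Dpm3, Ergic2, Rps6ka1, Cdip1, Poldip3, Setd7, As3mt, Rc3h2 and Cited2 (1.18). Dpm3, a subunit of dolichol-phosphate-mannose synthase, averaged 163 and 60.8 CPM (1.35) with a UMI ratio of 2.48 (1.53 to 4.28). The low extremes were larger than the high ones, and Setd7 had a UMI ratio of 1.60 (0.845 to 3.35) that covered 1.

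NK cells of CT26 tumours, a BALB/c colon carcinoma harvested on day 12, gave 1346 annotated cells in a separate matrix, and their values are set beside the 5555 cells without a comparison, since strain, tumour, day and table all differ. Ncr1 was seen in 80.8% of them and Cd3e in 3.49%. Gzma averaged 12280 CPM, Gzmb 2789 CPM, Prf1 1473 CPM, Ifng 221 CPM and Xcl1 798 CPM. Gzmc was seen in 115 of the 1346 cells (8.54%). In T cells of the undepleted 5555 libraries the NK genes were rare. Gzma was seen in 10 of 214 T cells in Ptgs-/- and 2 of 66 in Ptgs+/+ tumours, Eomes in 4 and 3, and Cxcr6 in 110 and 33.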

How the data were processed

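Per the labels' protocols, tumours were digested, live CD45+ cells were sorted and 10x Genomics 3' libraries were made. Cell Ranger 3.0.2, Partek and the mm10 build stand in the submitters' processing notes, without order or settings. The deposited matrices hold log2 values, log2(CPM + 1) per cell by the test that 2 to that power minus 1 gives CPM with the same total in every cell (within 0.00245%). UMIs came back as whole multiples of the commonest low value (99.9% of values within 0.1 UMI plus 0.01%), and for 18 symbols with parts of a UMI none is given. Of 11872 cells, 36 had no annotation and 18 shared a barcode. Classes are the authors' own, and no doublet caller was run.

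NK cells had a median of 2517 (588 to 13910) UMIs in NK-depleted Ptgs-/-, 2095.5 (568 to 11509) in Ptgs-/- and 1835 (560 to 13943) in Ptgs+/+ tumours. Thinning to 1500 UMIs left out 12, 111 and 41 of them. Folds are differences of log2(mean CPM + 5), called at 1.5-fold, for genes whose 2 shares of cells averaged at least 5%. Intervals are at 95%: Clopper-Pearson for a share, log-scale for a ratio of shares, and exact conditional binomial for a UMI ratio. A count of 0 is taken as under 3 counts. The scripts were tested on simulated data. Python 3.11.15, numpy 2.4.6, scipy 1.17.1 and pandas 2.3.3 were used.

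Named genes were a fixed set, the 2 to 4 members with the largest fold in each described list among genes in at least 10% of cells, and the 10 highest and 10 lowest genes, leaving out ribosomal, mitochondrial, haemoglobin and antigen receptor genes. S1pr5, Lyz2, S100a9, Ccr2, Tgfbr1, Isg15, Pde4d and the Nr4a genes fall outside it. So do the genes set beside Gzmc and the T cell genes of the depleted library. All of these were chosen after their values were seen. The cells, lists and rule were chosen with earlier results of these data known. Alternatives were other pseudocounts, summaries over cells, detection filters, centring, cell subsets, thinning and denominators.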

Additional observations from a re-analysis of the deposited data

How the results depend on the processing

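No paired analysis was possible because each condition is 1 library, and no replicate could be left out. The Ptgs-/- over Ptgs+/+ NK share ratio of 2.60 was 2.49 to 3.04 under 6 alternatives and 1.10 among lymphocytes. The NK-depleted over Ptgs-/- ratio of 0.106 was 0.357 among lymphocytes, 0.0249 without CD3-chain cells and 0.00567 for cells with Ncr1 or Klrb1c. It was 0.00251 for those with an NK marker and no CD3 chain. For Gzma with Ncr1 or Eomes in any class it was at most 0.00839, with 0 cells taken as 3. These last 2 were added after seeing the data. Genes called higher (591) and lower (529) were 369 and 302 at a pseudocount of 20, 2113 and 1675 with no detection filter, 248 and 232 with a 10% filter and 149 and 96 at 2-fold. Higher calls were 980 without each gene's highest cell (358 lower, median of all genes 0.13) and 944 at 1500 UMIs, and lower calls 171 as differences of mean log2 values per cell (572 higher, median 0.10). In those last values medians were 0.88 for granzymes, 0.73 for chemokines and 0.63 for the inhibitory receptor list and for mature genes. They were 0.68 for transcription factors, 0.64 for homing receptors and -0.57 for immature genes. The immature median was -0.56 at 1500 UMIs, and -0.91 misses a 2-fold limit. The checkpoint median of -0.54 was -0.61 at a pseudocount of 1 and -0.69 from summed UMIs, and the S phase median of 0.50 was 0.90 from summed UMIs, 0.65 with no filter, 0.72 without each gene's highest cell and 1.00 at 1500 UMIs. The MHC class II median of 0.66, short of 2-fold, was 0.49 at a pseudocount of 20, 0.15 as mean log2 values, 0.30 from summed UMIs, 0.22 with no filter, 0.20 without CD3-chain cells, 0.28 without other lineages, 0.21 without the cells with most genes, -0.05 at 1500 UMIs and 0.16 with NK-marker cells alone or without Gzmc cells. Reversed were Mki67 (0.64, -0.05 without the cells with most genes), Egr1 (-0.74, 0.02 without other lineages) and, in the 45 annotated cells of the depleted library against Ptgs-/- NK cells, Ctla4 (4.11, -2.12 in the 10 without a CD3 chain). Unthinned, Ncr1 was in 48.6% of Ptgs-/- NK cells and Klrb1c in 73.3% of Ptgs-/- and 62.8% of Ptgs+/+ NK cells. The causes were not tested. Over all named genes and alternatives, 1309 values kept their call, 122 fell short of the limit and 58 newly passed it. With 137 Ptgs+/+ NK cells, genes in few cells are imprecise.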
